A study of Mus musculus with 19 samples.

Results

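The 40 genes described here encode subunits and assembly factors of mitochondrial complex I in the nuclear genome, out of 21000 protein-coding genes measured in the same way. They were chosen by name, not by their 5-hydroxymethylcytosine (5-hmC), and comprise 33 subunits and 7 assembly factors (Ndufaf1 to Ndufaf7). The subunits were divided into 6 core subunits, 9 accessory subunits of the matrix arm and 18 accessory subunits of the membrane arm.

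The data are 5-hmC peak lists of cardiomyocytes (CMCs) from mice, obtained by immunoprecipitating sonicated DNA with a 5-hmC antibody and sequencing it (hMeDIP). The 4 points were embryos (E14.5), neonates of 1 to 2 days, adults of 2 months and adults 1 week after transverse aortic constriction (TAC), which narrows the aorta and loads the left ventricle with pressure. Each point had 2 biological replicates, and each replicate had its own list. All mice were male per the study's methods. E14.5 and neonatal CMCs came from digested whole ventricles with other cells removed by adhesion to dishes, whereas adult and TAC CMCs came from the perfused left ventricle and were settled by gravity, so age and isolation cannot be told apart. The TAC lists are compared with the adult lists, which the study calls normal adults, because no list labelled as sham-operated was analysed here.

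Complex I, or NADH:ubiquinone oxidoreductase, is the entry point of electrons into the respiratory chain. Its matrix arm oxidizes NADH and passes the electrons along iron-sulphur clusters to ubiquinone, and its membrane arm pumps protons. Accessory subunits surround and stabilize the catalytic core, while assembly factors help to build the enzyme and are absent from the finished complex. Cardiac muscle depends on oxidative phosphorylation, and its mitochondria expand after birth. 5-hmC is made from 5-methylcytosine by the TET enzymes and is known to accumulate in the bodies of active genes.

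The value reported for each gene is its coverage: the percentage of bases, from 2 kb before to 2 kb after the annotated gene, that lie in a peak. The members were 1.85 to 106 kb long with a median of 8.5 kb, so a single peak of the median width of 501 bp corresponded to 4.01% coverage at the median length. Lists held 104215 to 153637 peaks and covered 2.63% to 4.76% of the autosomes. TAC replicate 2 stood apart, with the smallest share of the autosomes (2.63%), the shortest mean peak width (606 bp) and 5.05% of peaks wider than 1 kb against 10.7% to 17.4% in the other lists. The values of both TAC lists are therefore given beside each mean after TAC, except for regions shared by replicates, which need both. With 2 lists a point, a two-sided exact permutation test between 2 points cannot give less than p = 0.333. A gene was therefore called different only when both replicates of a point lay above, or both below, both replicates of the other. The share of all genes with the same call is given beside the count of members at each comparison, but was not computed for most alternatives. The spread between replicates includes both animals and peak calling.

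7 stretches show sequence within peaks of members, and were chosen after the lists were examined for the points at which they were covered. All are on the GRCm38 (mm10) assembly, free of untranslated exons and of other genes, and are written 5′ to 3′ on the strand of the gene with each CpG, the usual site of 5-hmC, in capitals. Peaks come from sonicated DNA and have a median width of 501 bp, so neither their edges nor the capitals place 5-hmC at single bases. The stretch of Ndufb9, in an intron at chr15:58938127-58938289 (plus strand), lay in peaks of all 8 lists. The stretch of Ndufb7, in an intron at chr8:83570397-83570636 (plus strand), was in a peak in both neonatal lists, both adult lists and TAC replicate 1, and in neither E14.5 list. The next 4 stretches were in peaks of both adult lists and of no E14.5 or neonatal list. They lie at chr19:4008072-4008311 (Ndufv1, minus strand, an intron and 58 coding bases), chr13:114334203-114334433 (Ndufs4, minus strand, intron), chr17:31527448-31527687 (Ndufv3, plus strand, a coding exon) and chr1:92451611-92451835 (Ndufa10, minus strand, intron). TAC replicate 2 also covered the Ndufv1 stretch, and TAC replicate 1 those of Ndufs4 and Ndufv3. Beside the Ndufs4 stretch, chr13:114333845-114334139 was in peaks of both E14.5 lists and neonatal replicate 1. The Ndufv3 stretch lay in a wider region, chr17:31524389-31530417, that held peaks of all 8 lists. For these 2 genes the adult lists thus extended coverage that other points had nearby. The last, in an intron of Ndufaf2 at chr13:108133203-108133395 (minus strand), was in peaks of both E14.5 and both neonatal lists and of no adult or TAC list.
Ndufb9: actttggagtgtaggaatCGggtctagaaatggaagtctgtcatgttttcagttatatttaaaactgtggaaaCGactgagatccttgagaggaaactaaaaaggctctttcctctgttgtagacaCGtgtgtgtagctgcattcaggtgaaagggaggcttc
Ndufb7: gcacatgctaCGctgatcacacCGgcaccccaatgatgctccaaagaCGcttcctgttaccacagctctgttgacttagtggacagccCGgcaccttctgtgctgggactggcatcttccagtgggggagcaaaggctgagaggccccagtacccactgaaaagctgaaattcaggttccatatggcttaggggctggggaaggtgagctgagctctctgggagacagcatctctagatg
Ndufv1: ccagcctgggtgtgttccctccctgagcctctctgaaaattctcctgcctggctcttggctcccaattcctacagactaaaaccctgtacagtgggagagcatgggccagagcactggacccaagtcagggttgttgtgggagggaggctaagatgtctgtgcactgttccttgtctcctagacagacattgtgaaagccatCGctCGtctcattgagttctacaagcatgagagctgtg
Ndufs4: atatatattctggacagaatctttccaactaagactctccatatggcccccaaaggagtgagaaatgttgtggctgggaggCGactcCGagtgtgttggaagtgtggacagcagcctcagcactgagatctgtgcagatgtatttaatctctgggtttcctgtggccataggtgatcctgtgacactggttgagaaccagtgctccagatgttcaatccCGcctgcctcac
Ndufv3: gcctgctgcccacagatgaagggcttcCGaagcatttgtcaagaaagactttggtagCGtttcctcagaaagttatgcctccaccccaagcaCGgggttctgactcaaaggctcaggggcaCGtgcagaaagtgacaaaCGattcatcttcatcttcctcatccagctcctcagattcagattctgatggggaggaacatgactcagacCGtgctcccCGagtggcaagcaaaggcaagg
Ndufa10: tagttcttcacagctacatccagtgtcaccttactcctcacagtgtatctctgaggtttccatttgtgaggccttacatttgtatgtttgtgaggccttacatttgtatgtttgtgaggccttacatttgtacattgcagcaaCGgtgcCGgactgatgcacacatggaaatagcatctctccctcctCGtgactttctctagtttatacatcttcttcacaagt
Ndufaf2: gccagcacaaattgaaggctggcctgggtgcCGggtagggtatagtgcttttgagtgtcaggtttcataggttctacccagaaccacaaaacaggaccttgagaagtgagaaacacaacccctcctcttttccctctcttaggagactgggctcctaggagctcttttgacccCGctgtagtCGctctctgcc

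These 7 stretches held 2 (Ndufv1) to 7 (Ndufv3) CpGs each, or 0.833 to 2.92 per 100 bp. They lay 3.8 kb (Ndufb7) to 53.8 kb (Ndufs4) downstream of the first annotated start site. Over all members, bases more than 1 kb from a start site that were covered in at least 1 list held 1.33 CpGs per 100 bp, and those covered in none held 0.846. Bases within 1 kb of a start site were richer in CpG, with 3.96 per 100 bp, and their 5-hmC coverage is given below. Repeat-masked sequence made up 21.2% of the covered and 29.1% of the uncovered bases away from start sites.

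The members as a group had the lowest coverage at E14.5 and the highest in adult CMCs. Mean coverage of the 40 members was 4.49% and 3.46% in the E14.5 lists, 11.3% and 10.7% in the neonatal lists, 12.7% and 16.5% in the adult lists, and 12.1% and 6.22% in the TAC lists. Every neonatal and adult list lay above both E14.5 lists, while the TAC lists differed from each other by more than the adult lists did. The mean over all protein-coding genes moved less, at 5.15% ± 0.28 (SD, n = 2), 6.76% ± 0.89, 7.10% ± 1.44 and 4.95% ± 1.52 (6.03% and 3.88% after TAC) in the same order. Coverage depends on gene length, so each member was also set against the 1434 to 3763 other protein-coding genes within 25% of its widened length. The members lay below those genes at E14.5, by 1.43 ± 0.34 percentage points on average, with 4.49% and 3.46% against 5.68% and 5.14% in the 2 lists. They lay above them by 3.86 ± 1.37 points in neonatal CMCs, by 6.77 ± 0.94 in adult CMCs and by 3.77 ± 2.39 after TAC. The difference in the TAC lists was 5.46 points in replicate 1 and 2.08 in replicate 2.

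**Figure D1:**
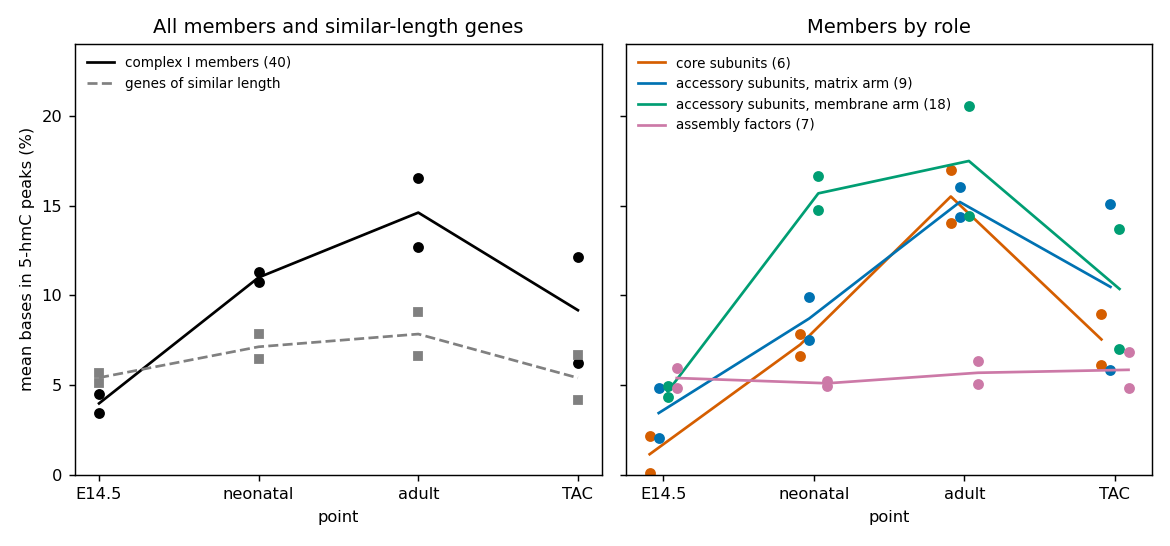
Mean percentage of bases in 5-hmC peaks (vertical axis) at the 4 points (horizontal axis). Dots and squares are single peak lists and lines join the means of 2; the left panel shows the 40 members (black) and genes of similar length (grey), and the right panel shows the members by role. The members start below the grey line at E14.5 and lie above it at the other points, and the assembly factors stay between 4.85% and 6.85% throughout.

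The subunits and the assembly factors had different courses. The 33 subunits averaged 3.68% ± 1.04 at E14.5, 12.2% ± 0.43 in neonatal CMCs, 16.5% ± 3.07 in adult CMCs and 9.87% ± 4.75 after TAC (13.2% and 6.52% in the 2 lists). The 7 assembly factors averaged 5.39% ± 0.77, 5.10% ± 0.19, 5.68% ± 0.90 and 5.85% ± 1.42 (6.85% and 4.85% after TAC), with overlapping lists between E14.5 and adult. Within the subunits the 3 roles followed different courses. Accessory subunits of the membrane arm reached 15.7% ± 1.34 in neonatal CMCs, from 4.64% ± 0.43 at E14.5, and 17.5% ± 4.35 in adults. Core subunits were at 1.15% ± 1.47, 7.25% ± 0.87 and 15.5% ± 2.05 at these points, and accessory subunits of the matrix arm at 3.44% ± 1.98, 8.71% ± 1.67 and 15.2% ± 1.20. In neonatal CMCs both lists of the membrane arm thus lay above those of the other 2 roles, whereas in adults the ranges of the 3 roles overlapped. The difference between roles was not tested, since the members of a role are not replicates.

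**Figure D2:**
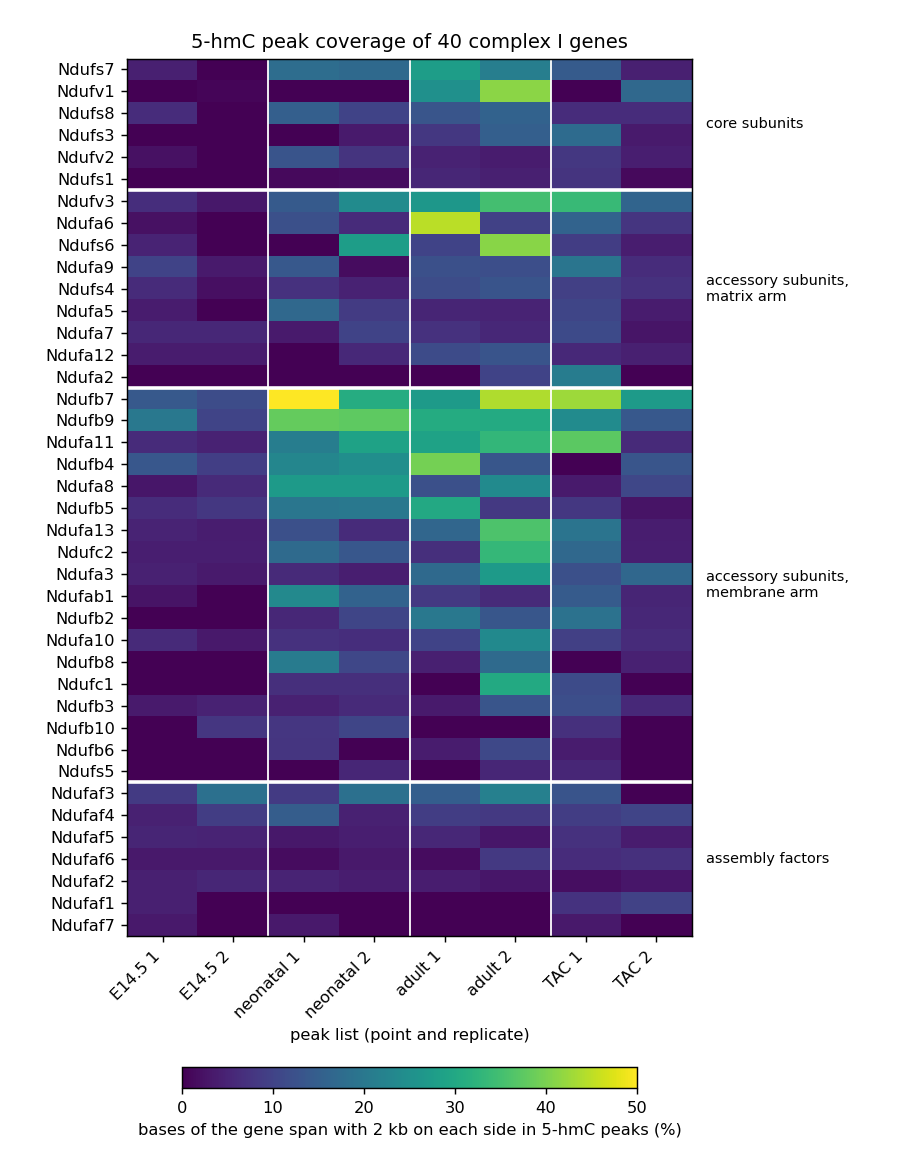
Percentage of bases in 5-hmC peaks (colour scale, 0 to 50%; 1 value above 50% is drawn at its end) for each of the 40 members (rows, by role and then by mean) in each of the 8 peak lists (columns). Most rows are dark in the E14.5 lists; Ndufb7 and Ndufb9 are bright in most lists, and the assembly factors show little change.

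From E14.5 to neonatal CMCs, coverage was higher in both replicates for 20 of the 40 members and lower for 1. Of all protein-coding genes, 21.3% were higher and 5.68% lower by the same rule, and of genes of similar length 17.95% and 4.93%. All 20 were subunits: 4 of 6 core subunits, 3 of 9 of the matrix arm and 13 of 18 of the membrane arm. The only member that was lower was the assembly factor Ndufaf5, which hydroxylates Ndufs7, with 5.19% and 5.01% at E14.5 against 3.29% and 4.26%. The median change of a member was 4.26 percentage points, against 0.13 over all genes.

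The largest neonatal gains were in the membrane arm. Ndufb7, a cysteine-rich subunit facing the intermembrane space, was covered at 13.9% and 11.6% at E14.5 and 50.5% and 30.9% in neonatal CMCs, a gain of 27.9 points. Ndufa8, of the same cysteine-motif family, had 2.94% and 5.89% before birth and 27.2% and 27.3% after it. The neonatal totals of Ndufa8 were almost equal, and its mean difference from E14.5 was 22.8 points. Only 11.2% of its span was in peaks of both neonatal lists, so the 2 lists covered largely different bases. Ndufb9, a small LYR-motif protein that binds acyl carrier protein, had 20.1% and 10.3% against 38.3% and 37.6%. Ndufa11, a membrane subunit at the contact with complex III in the supercomplex, had 6.07% and 4.78% against 21.3% and 28.8%. Ndufab1, the mitochondrial acyl carrier protein itself, had 2.63% and 0% against 23.5% and 15.8%. The E14.5 values of these 5 members were at most 20.1%. Within each member both neonatal values lay above both E14.5 values, which is the rule by which it was called. Ndufb8, another subunit of the membrane arm, had no peak in either E14.5 list and reached 20.8% and 10.6%. Ndufa8 was not alone in its small shared part. Peaks of both neonatal lists held 4.78% of the span of Ndufa11, 4.99% of Ndufb8 and 9.54% of Ndufab1. For Ndufb7 and Ndufb9 this part was 26.1% and 25.6%.

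In the matrix arm, gains were smaller on average. Ndufs7, the core subunit that carries the last iron-sulphur cluster before ubiquinone, had 4.42% and 0% at E14.5 against 17.8% and 17.0% in neonatal CMCs. Ndufv3, an accessory subunit at the NADH-oxidizing end, had 6.59% and 3.29% against 14.1% and 24.1%. Neither overlapped between the 2 points, nor did the remaining 12 members called higher, whose gains ran from 1.54 points (Ndufs1) to 12.6 (Ndufb5). For Ndufs7, 4.42% of the span was in peaks of both neonatal lists. Ndufs1, Ndufs8, Ndufa6 and Ndufc1 were called higher although their neonatal lists shared no base.

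From neonatal to adult CMCs, coverage was higher in both replicates for 12 members and lower for 6, against 13.6% and 17.8% of all protein-coding genes and 14.4% and 12.9% of genes of similar length. The 6 lower members, 15% of the 40, were thus near the background, and the 12 higher ones, 30%, above it. All 18 were subunits, and all 7 assembly factors overlapped. 4 of the 6 core subunits were higher (Ndufs1, Ndufs3, Ndufs7 and Ndufv1) and 1 was lower (Ndufv2). The largest single change was in Ndufv1, the flavin-bearing subunit that receives electrons from NADH. It had no peak in either neonatal list and 25.1% and 41.2% in adult CMCs. In the E14.5 lists Ndufv1 had 0% and 0.659%, so its coverage, including the stretch printed above, was found in adult and, in replicate 2, TAC lists almost alone.

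Other adult gains came from both arms. Ndufa3, a small membrane-arm subunit, had 5.86% and 4.24% in neonatal CMCs and 17.0% and 27.2% in adults. Ndufa13, also known as GRIM-19, had 12.1% and 6.20% against 16.4% and 36.0%. Ndufv3 had 26.4% and 35.0% in adults, above its neonatal 14.1% and 24.1%. Ndufa11 was also counted as higher, with a lower adult value of 28.82% against an upper neonatal one of 28.78%. Ndufa10, a membrane-arm subunit with a nucleoside-kinase fold, had 7.21% and 6.53% against 9.99% and 23.7%. Peaks of both adult lists held 1.96% of the span of Ndufa10, against 16.4% of Ndufa13. Ndufs3, a core subunit near the ubiquinone site, had 0% and 3.55% against 8.02% and 15.2%. Ndufa12, which sits at the junction of the matrix-arm modules, had 0% and 5.69% against 11.4% and 12.9%. Ndufb2, a small subunit of the membrane arm, had 5.62% and 10.5% against 20.01% and 13.3%.

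6 members had less adult than neonatal coverage. Both steps use the same neonatal lists, so a high neonatal value counts towards a gain at the first and a loss at the second. Ndufab1 went from 23.5% and 15.8% to 8.33% and 5.99%, and Ndufa8 from 27.2% and 27.3% to 12.2% and 24.01%. Ndufb9 was at 30.8% and 30.5% in adults, under its neonatal values of 38.3% and 37.6% but above both E14.5 values. Ndufb10 had 7.87% and 10.4% in neonatal CMCs and no peak in either adult list. Ndufa5 had 16.9% and 8.66% against 5.23% and 4.92%. Ndufv2, the iron-sulphur partner of Ndufv1, had 13.0% and 7.49% against 4.81% and 3.74%.

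Across both postnatal steps, 7 members were higher at each (Ndufs1, Ndufs7, Ndufv3, Ndufa10, Ndufa11, Ndufa13 and Ndufb2), Ndufa11 only by the narrow gap given above, whereas 4.11% of all genes were. Compared directly, adult coverage was above E14.5 coverage in both replicates for 26 of 40 members and below it for 1, against 24% and 14.8% of all protein-coding genes and 22.9% and 10.3% of genes of similar length. The 26 were all subunits and included 6 of 6 core subunits, 7 of 9 of the matrix arm and 13 of 18 of the membrane arm. The assembly factor Ndufaf2, a chaperone related in sequence to Ndufa12, was the 1 member that was lower, with 4.38% and 5.45% at E14.5 and 3.997% and 2.999% in adults. Both E14.5 to neonatal and E14.5 to adult comparisons use the same E14.5 lists.

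**Figure D3:**
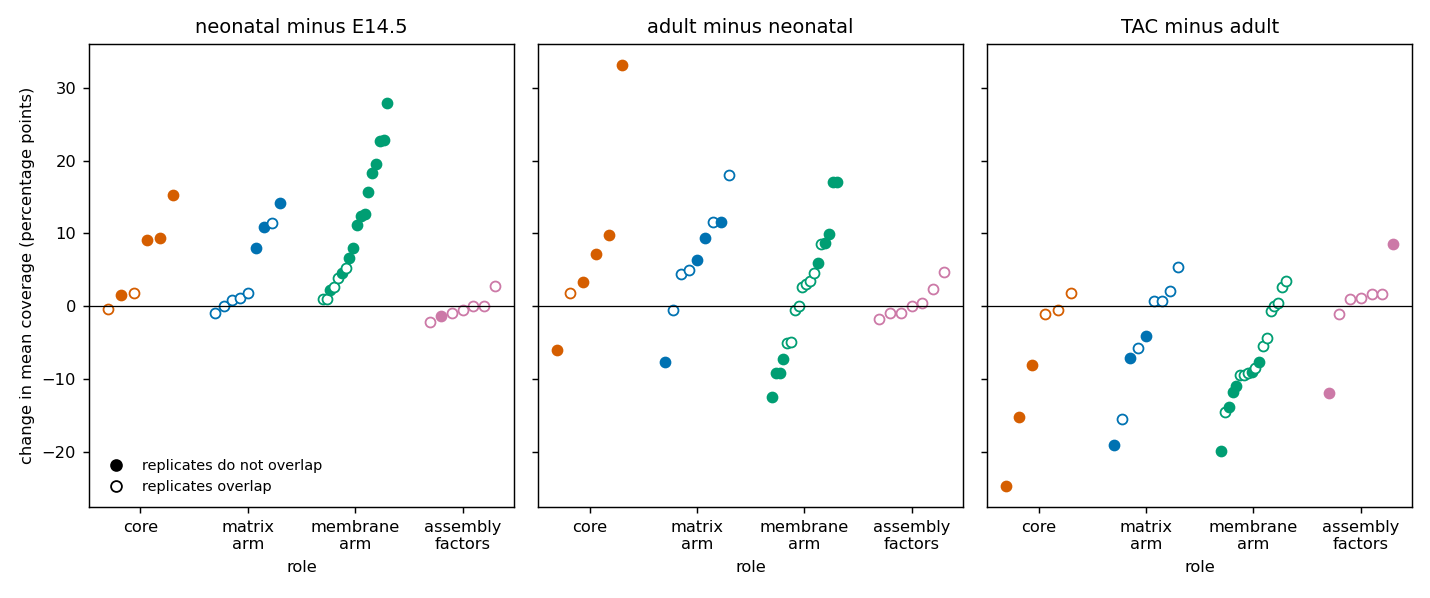
Change in mean coverage of each member (vertical axis, percentage points) at the 3 transitions (panels), by role (horizontal axis). Filled dots are members whose replicates do not overlap and open dots those whose replicates overlap; in the first panel 20 filled dots lie above 0 and 1 below, in the second 12 and 6, and in the third 1 and 13.

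After TAC, coverage was lower in both replicates for 13 members and higher for 1, against 19.7% and 5.02% of all protein-coding genes and 17.8% and 4.16% of genes of similar length. This balance rested on TAC replicate 2: with replicate 1 as the only TAC list, 15 members lay below both adult lists and 13 above both (26% and 16.7% of all protein-coding genes), whereas with replicate 2 alone 27 lay below and 2 above (37% and 16% of all genes). It also rested on the measure, with 2 lower and 2 higher counted by peak centres per 10 kb, and 8 lower and 3 higher when coverage was divided by the share of the autosomes in each list. The shares of all genes under these 2 measures were not computed, so these counts cannot be set against a background. The 13 members were 3 core subunits, 3 subunits of the matrix arm, 6 of the membrane arm and the assembly factor Ndufaf3. Ndufv1 had 0% and 16.8% after TAC against 25.1% and 41.2% in adults. Ndufb4, of the membrane arm, had 0% and 13.3% against 39.6% and 13.4%. The upper TAC value of Ndufb4 lay only just below the lower adult one. Ndufs6, which binds zinc, had 9.15% and 3.97% against 9.98% and 41.1%, again with a narrow gap. For Ndufs7 the gap was wider, with 14.4% and 4.42% against 27.9% and 21.4%.

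Ndufb5, another membrane-arm subunit, had 8.13% and 2.71% after TAC against 30.2% and 8.37%. Ndufaf3, which acts in building the ubiquinone-binding module, had 12.9% and 0% against 14.9% and 21.7%. For Ndufb9 the values were 24.1% and 13.7% against 30.8% and 30.5%, and for Ndufa8 they were 3.68% and 10.5% against 12.2% and 24.01%. The remaining 5 members with lower values (Ndufs4, Ndufs8, Ndufa3, Ndufa10 and Ndufa12) differed by 4.11 to 9.08 points. Of these 8 members with the widest falls, all but Ndufv1, Ndufb4 and Ndufa8 were covered more in TAC replicate 1 than in replicate 2. The 1 member with higher coverage was Ndufaf1, a factor that works with Ecsit and Acad9 on the membrane arm. It had no peak in the neonatal and adult lists and 7.24% and 9.93% after TAC, with 4.40% and 0% at E14.5. Its TAC coverage came from 1 peak in replicate 1 and 2 in replicate 2, which shared no base.

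Over all 4 points together, an exact permutation test (one-sided, comparing the spread between points with that of each of the 105 ways to divide the 8 lists into 4 pairs) gave p under 0.05 for 4 of 40 members, against 6.17% of all protein-coding genes. They were Ndufs7 (p = 0.019), Ndufa3 (p = 0.019), Ndufa8 (p = 0.019) and Ndufs4 (p = 0.038 in this exact test). None passed the Benjamini-Hochberg adjustment over all genes, where the smallest adjusted p in the exact permutation test was 0.705. Ndufs4, a matrix-arm subunit whose loss destabilizes the NADH-oxidizing module, had 6.24% and 1.97% in the E14.5 lists and 7.08% and 4.87% in the neonatal ones. It reached 11.7% and 13.1% in adults and had 9.42% and 7.15% after TAC. For Ndufs4, adult coverage was thus higher than at every other point, by a small amount over a gene of 100.3 kb.

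A fit across all genes called fewer members than the non-overlap rule. limma, applied to the square root of coverage in the 17227 genes with a peak in at least 2 lists, gave an adjusted p under 0.05 for 0 members in any of the 4 comparisons. At an unadjusted p under 0.05 in limma, 11 members were higher and 0 lower from E14.5 to neonatal, against 5.65% and 0.9% of the genes fitted. It found 4 higher and 1 lower from neonatal to adult (4.19% and 5.83% of genes) and 1 and 1 from adult to TAC (1.67% and 5.95%). From E14.5 to adult it found 17 higher and 0 lower, against 11.5% and 5.83% of genes. The moderated F test of limma over the 4 points gave an unadjusted p under 0.05 for 13 members, against 12.4% of genes, and for 13 with the replicate number in the fit, against 11.6%.

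The 5 most covered members over all lists were Ndufb7 (mean 31.0%), Ndufb9 (25.7%), Ndufa11 (20.8%), Ndufv3 (19.9%) and Ndufb4 (17.1%), of which 4 belong to the membrane arm. Ndufb7 was the most covered member in 4 of the 8 lists, with 42.7% and 27.2% after TAC. Ndufa11 was at 28.8% and 33.1% in adults, while its TAC lists disagreed widely at 37.5% and 6.05%. Every member had a peak in at least 2 lists, and 18 had one in all 8. Ndufa2, a small matrix-arm subunit, had peaks in only 2 lists, adult replicate 2 (10.1%) and TAC replicate 1 (21.0%). The assembly factor Ndufaf7 was the least covered on average at 1.26%, and Ndufs5 of the membrane arm was next at 1.98%.

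The number of members with any peak was 30 and 23 in the E14.5 lists, then 33 and 35, then 34 and 37, and 37 and 33 after TAC. Regions shared by both replicates of a point were found in 17, 27, 30 and 14 members in that order. The corresponding shares of all protein-coding genes were 46.1%, 51.4%, 45.7% and 30.6%, and of genes of similar length 36.0%, 42.1%, 39.3% and 23.3%. At E14.5 the members were thus near the share of genes of similar length, and in adults 30 of 40 had a shared region. No assembly factor had one after TAC, compared with 4 in adults.

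The higher postnatal coverage lay in gene bodies and behind the gene ends. Within 1 kb of the start site, mean coverage of the members was 4.86% and 4.79% in the E14.5 lists and 7.09% and 4.42% in the neonatal ones, with 3.41% and 4.43% in adults and 3.76% and 3.95% after TAC. In the gene body from 1 kb onward it was 4.78% and 2.995%, then 14.7% and 13.7%, then 15.3% and 22.4%, and 14.9% and 6.78%. In the 2 kb after the gene end it began at 1.59% and 1.60%, was 6.19% and 8.69% in neonates and 15.1% and 21.0% in adults, and ended at 13.3% and 7.83%. Both adult lists thus lay below both E14.5 lists at start sites, by a small amount, and far above them in the other 2 parts. At the start sites of the 7 assembly factors coverage was 7.95% and 7.96% in the E14.5 lists, 6.16% and 3.54% in neonates, 1.83% and 1.39% in adults and 0% and 3.58% after TAC, while the lists of the subunits overlapped there between E14.5 (4.21% and 4.12%) and adult (3.75% and 5.08%). Only 7 start sites enter each of these assembly factor means, so they rest on few peaks. For all protein-coding genes the 2 kb after the end had 4.48% and 4.27% at E14.5 and 5.15% and 7.37% in adults, a far smaller difference. Introns held 62.9% to 72.1% of the members' peaks by peak centre, and the share within 1 kb of a start site was 11.1% and 13.0% at E14.5 and 3.60% and 4.35% in adults.

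**Figure D4:**
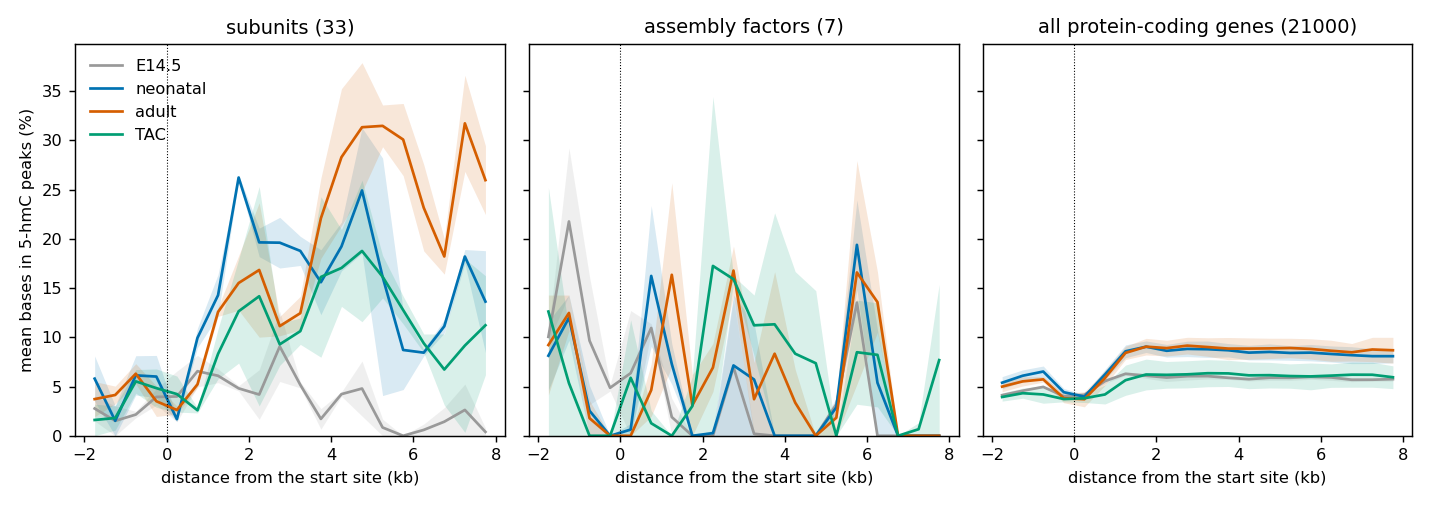
Mean percentage of bases in 5-hmC peaks (vertical axis) in 500-bp bins around the start site (horizontal axis, distance in kb), for subunits, assembly factors and all protein-coding genes. Lines are means of 2 lists and shading spans them. A gene is left out of bins that reach more than 2 kb past its end, so bins can include bases behind shorter genes. The adult lists of the subunits are at 2.20% and 3.03% in the first 500 bp after the start site. In the bin centred 4750 bp downstream, which 30 subunits enter, they are at 24.8% and 37.9%. The curve of 7 assembly factors is jagged because few genes enter it.

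Peaks on members were wider in neonatal and adult than in E14.5 CMCs. At E14.5 they averaged 627 and 663 bp, in neonatal CMCs 789 and 830 bp, in adult CMCs 770 and 944 bp and after TAC 728 and 608 bp. The mean over all peaks of the same lists was 675 and 685, 711 and 772, 731 and 801, and 715 and 606 bp, so peaks on members were shorter than average at E14.5 and longer in neonates and adults. The widest was 4034 bp, in Ndufv3 in adult replicate 2, and includes the coding stretch printed above. Wide peaks, over 1 kb, made up 9.52% and 13.0% of the members' peaks before birth, 21.6% and 18.8% in neonates and 17.1% and 24.3% in adults. After TAC they made up 13.5% and 6.76%, and in TAC replicate 2 both this share and the mean width lay below those of both E14.5 lists.

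Other respiratory chain genes were measured beside the members. The 28 genes of complexes II and III and ATP synthase averaged 5.01% ± 2.58, 17.96% ± 0.99, 15.2% ± 2.87 and 9.15% ± 6.01 at the 4 points (13.4% and 4.91% after TAC), with 18 higher and 0 lower from E14.5 to neonatal CMCs. From neonatal to adult CMCs 5 of them were higher and 7 lower, against 12 and 6 of the 40 members. From E14.5 to adult 17 of the 28 were higher and 1 lower, against 26 and 1 of the members. After TAC 0 were higher and 9 lower, against 1 and 13 of the members. The 28 genes lay above genes of similar length by 10.99 ± 1.96 points in neonates and 7.48 ± 1.12 in adults, the members by 3.86 ± 1.37 and 6.77 ± 0.94. The 17 cytochrome c oxidase subunits averaged 9.97% ± 2.72, 19.2% ± 0.02, 13.7% ± 5.20 and 10.1% ± 4.30 (13.2% and 7.08% after TAC), with 8 higher and 2 lower from E14.5 to neonatal and 2 higher and 5 lower from neonatal to adult. From E14.5 to adult 5 of these 17 were higher and 2 lower, and after TAC 1 was higher and 5 lower. The 11 other complex I genes measured, chiefly assembly factors, averaged 2.13% ± 1.05, 4.08% ± 0.50, 4.88% ± 0.35 and 4.29% ± 1.51 (5.36% and 3.22% after TAC), below genes of similar length at every point (by 2.65 ± 1.41 points in neonates and 2.38 ± 1.91 in adults). Of these 11, 1 (Timmdc1) was higher and 0 lower from E14.5 to neonatal CMCs, 2 were higher and 3 lower from neonatal to adult, and 3 were higher and 1 lower from E14.5 to adult. After TAC 1 of the 11 was higher and 1 lower. The shares of all protein-coding genes at the same comparisons are those given above for the members. Whether these lists differ from the members was not tested.

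Markers of cell types were measured in the same lists. The 9 cardiomyocyte markers averaged 23.7% ± 2.79, 30.5% ± 2.81, 13.6% ± 4.63 and 11.8% ± 0.64 (12.3% and 11.4% after TAC) at the 4 points, and their mean moved with that of the members from E14.5 to neonatal CMCs (3 markers higher and 1 lower). From neonatal to adult CMCs 9 of 9 were lower. The 7 fibroblast markers averaged 3.61% ± 1.87, 2.36% ± 0.68, 0.9998% ± 0.69 and 1.43% ± 0.02 (1.42% and 1.44% after TAC), and Col3a1 had no peak in any list. The 6 endothelial markers averaged 10.4% ± 0.31, 10.6% ± 5.01, 7.79% ± 0.75 and 5.45% ± 0.09 (5.39% and 5.52% after TAC), and none lacked peaks throughout. No fibroblast or endothelial marker was higher at any of the 3 transitions. Of the endothelial markers 1, 2 and 3 of 6 were lower at the 3 transitions in order, and of the fibroblast markers 1, 1 and 0 of 7. Of all protein-coding genes, 21.3% were higher and 5.68% lower from E14.5 to neonatal CMCs. The shares were 13.6% and 17.8% from neonatal to adult, and 5.02% and 19.7% from adult to TAC. The part of other cells in the members' values was not tested.

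26 of the 40 members share their widened span with another gene, and peaks carry no strand, so 5-hmC there cannot be assigned to 1 gene. The share in other genes was largest for Ndufa2 (63.8%) and Ndufs1 (50.2%). With those bases left out, 19 members were higher from E14.5 to neonatal CMCs and 25 from E14.5 to adult, without a computed share of all genes.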

How the data were processed

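5-hmC was profiled by hMeDIP sequencing in 8 CMC samples. Per the study's methods, the authors used BWA 0.7.4-r385 to align reads to mm10, filtered them with Picard and by mapping quality, and called the peaks of every replicate on its own against input DNA (HOMER findPeaks, histone mode). The deposited files hold peak positions and a score that is 1 for every peak, so neither peak height nor read depth is known here, and no counting interval can be given. Input and sh-control samples are without a file used here and were not analysed. Gene spans of 21000 protein-coding genes came from RefSeq (GRCm38.p6), whose assembly is the build of the peaks. Positions are 1-based.

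Overlapping peaks of a list were merged, and the percentage of bases covered was computed per gene and list with Python 3.11.15 and numpy 2.4.6; sequences were read with pysam 0.24.0. Points were compared by non-overlap of replicates, and by an exact permutation test with Benjamini-Hochberg adjustment over all protein-coding genes. As an alternative, square roots of the percentages were fitted with limma 3.58.1 in R 4.3.3 for the 17227 genes with a peak in at least 2 lists. Other alternatives changed the flanks, overlapping genes, list length, scaling and replicates. The code was tested on simulated data. Named members are those whose replicates did not overlap at a transition (at most 8 with the largest rises and 8 with the largest falls of the mean), the 5 with the highest mean and those with exact permutation p under 0.05; Ndufs1 and others outside the rule were named after their values were seen. The members, roles and comparison lists were chosen with earlier results of these data known. 1 gene of a comparison list is not reported here, and 1 (Coa1) was not matched to the annotation.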

Additional observations from a re-analysis of the deposited data

Results flagged for a closer look

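The mitochondrial genome encodes further core subunits of complex I and lies outside the coverage measured above. It carried 3 peaks in TAC replicate 2 and 0 in each of the other 7 lists, the adult lists included. 1 of the 3 overlapped complex I genes (ND4L and ND4), and the others overlapped cytochrome c oxidase genes (COX1 with COX2, and COX3). The list concerned is the one with the smallest share of the autosomes in peaks, and the part of that difference in these peaks was not tested.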

How the results depend on the processing

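The differences from genes of similar length, the only results here that can change sign, kept their sign under every alternative run. Of 140 alternative values, 88 stayed near the reported one, within 1.5 times for a count and 1 SD for a mean. A mean with 1 of its 2 lists left out always stays within that SD, so these values, counted among the 88, show no stability. Shares of all genes were computed for the limma counts and single TAC lists only, so the other alternative counts have no background share. Counted by peak centres per 10 kb, 12 members were higher and 0 lower from E14.5 to neonatal CMCs, 2 higher and 2 lower from adult to TAC, and 0 lower from E14.5 to adult. With coverage divided by the share of the autosomes in each list, 2 were lower from E14.5 to neonatal, 3 were higher and 8 lower after TAC, and 0 were lower from E14.5 to adult. With equal numbers of peaks, 2 were lower from E14.5 to neonatal, 2 were lower from neonatal to adult, 0 were lower from E14.5 to adult, and the adult difference from genes of similar length was 5.44 points.

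In the limma fits 0 members passed an adjusted p of 0.05 in any direction at the 3 transitions or from E14.5 to adult. The smallest adjusted p of a member by limma was 0.0991, from E14.5 to adult. Its moderated F test gave 13 members at an unadjusted p under 0.05 and 0 at an adjusted one.

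In base pairs shared by both replicates, the differences from genes of similar length shrank to -0.45, 1.52, 2.94 and 0.83 points at E14.5, neonatal, adult and TAC. With a 50% reciprocal overlap, 7 members had a shared region after TAC.

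Leaving out 1 list gave 22 to 28 members higher and 2 to 4 lower from E14.5 to neonatal, 15 to 21 and 7 to 12 from neonatal to adult, 2 to 13 and 15 to 27 after TAC, and 27 to 32 and 2 to 3 from E14.5 to adult; these counts can only grow, since fewer lists must be separated. The widest shifts came without adult replicate 1 (21 higher than neonatal, and 22 lower after TAC), without TAC replicate 1 (27 lower) and without TAC replicate 2 (13 higher). Over the 4 points 1 to 8 members had an exact permutation p under 0.05, with 1 without neonatal replicate 1 and 8 without TAC replicate 1. The differences from genes of similar length ranged from -1.67 to -1.19, 2.89 to 4.83, 6.10 to 7.43 and 2.08 to 5.46 points.

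The replicate numbers do not pair the samples: deviations of same-numbered lists correlated between -0.18 and 0.20. Used as a replicate block, they gave 24 higher and 1 lower from E14.5 to neonatal, 15 and 7 from neonatal to adult, 3 and 16 after TAC, 28 and 1 from E14.5 to adult, and 13 members by the moderated F at an unadjusted p and 0 at an adjusted p. The causes of these shifts were not tested. The E14.5 to adult counts and their alternatives were chosen after seeing the data. Read depth is unknown, so a gene without a peak is not shown to lack 5-hmC.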
